A study of Drosophila melanogaster with 4 samples.

Results

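The bithorax complex of Drosophila melanogaster holds 3 Hox genes, Ubx, abd-A and Abd-B, and it was described here by the Polycomb regions that lie over it. Its regions were taken by position, as every deposited region that overlapped 3R from 12480000 to 12820000 on FlyBase r5. This gave 3 of the 1189 regions of ChIP replicate 1 and 4 of the 1405 regions of ChIP replicate 2. On the arm 3R alone they were 3 of 300 and 4 of 333 regions. The lists hold no gene names, so the 3 genes were not assigned to single regions. The limits of this window follow the Polycomb regions closely and were set with them known, so the covered share of the window is a description and was not tested.

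The chromatin came from wild-type embryos of the Oregon-R strain (Oregon-R-modENCODE), aged 14 to 16 h and fixed with 1.8% formaldehyde. The series has 2 libraries precipitated with an antibody against Polycomb (Pc) and 2 input libraries of genomic DNA, all of the same strain, genotype and age. Each ChIP library has its own list of enriched regions with the authors' score per region, whose scale is not stated. The inputs have no values here, and read depth per library is unknown. With 1 condition there is no contrast between groups, and nothing in the labels says whether the ChIP libraries came from separate embryo collections.

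Hox genes give segments their identity along the head-to-tail axis, and each is kept silent by Polycomb group proteins in the segments where it should be off. Pc belongs to Polycomb repressive complex 1, and its chromodomain binds the trimethylated histone H3 tail laid down by the other Polycomb complex. Ubx acts in the posterior thorax and the front of the abdomen, abd-A in the anterior and middle abdomen, and Abd-B in the posterior abdomen and genitalia. Their expression is set by long stretches of regulatory DNA between and within the genes, which include Polycomb response elements. An embryo holds cells in which a given member is on and cells in which it is off, and a library made from embryos does not separate them.

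The genes lie in the order Ubx, abd-A, Abd-B along 3R. In the RefSeq gene table, which is of Release 6 and was used here for names and order only, all 3 members were matched by symbol. Between Ubx and abd-A it lists 7 genes, of which 2 are protein-coding (CG31275 and Glut3) and 5 are noncoding, among them lncRNA:bxd. Between abd-A and Abd-B it lists 6, of which 1 is protein-coding (MSAmiP) and 5 are noncoding, among them the microRNA genes mir-iab-4 and mir-iab-8. The nearest gene before Ubx is modSP, and the next protein-coding gene after Abd-B is VhaM9.7-d. The left end of the Polycomb block is therefore the end nearer to Ubx and the right end the one nearer to Abd-B.

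Polycomb covered nearly the whole complex in both libraries. Of the 340001 bases of the window, 328098 (96.5%) lay under a region in replicate 1 and 326049 (95.9%) in replicate 2, a mean of 96.2% ± 0.426 (SD, n = 2). Outside the window, regions covered 8.12% of the bases of 3R in replicate 1 and 8.07% in replicate 2. The window makes up 1.22% of the arm and held 12.8% of the arm's Polycomb-covered bases in each library. It held 3.81% of all covered bases of the replicate 1 list and 3.77% of those of replicate 2.

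The replicate 1 list divided the complex into 3 regions. The first, at the Ubx end, ran from 12482202 to 12484237 (2.04 kb) with a score of 0.473. The second ran from 12484282 to 12583095 (98.8 kb) with a score of 1.20. The third reached the Abd-B end, from 12587227 to 12814474 (227.2 kb), with a score of 1.82. The short first region was separated from the second by 44 bases only, so the list in effect showed a narrower left part and a wider right part.

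The replicate 2 list divided the same stretch into 4 regions. From the Ubx end, the first ran from 12482412 to 12514930 (32.5 kb, score 0.904) and the second from 12515415 to 12583086 (67.7 kb, score 1.22). The third ran from 12587312 to 12623819 (36.5 kb) and scored 1.40. The fourth, at the Abd-B end, ran from 12625077 to 12814426 (189.4 kb) and scored 1.62. Here the left part and the right part were each made of a pair of regions.

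**Figure D1:**
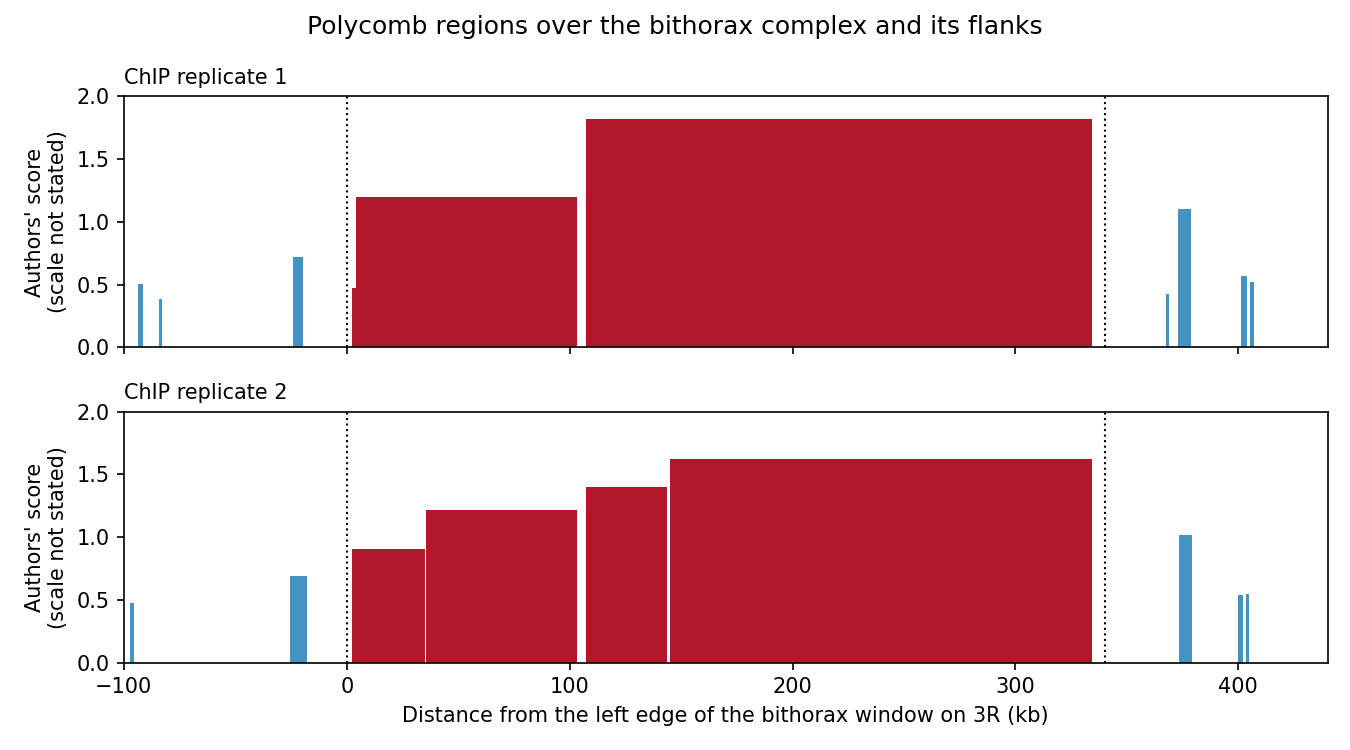
Polycomb regions over the bithorax window and the 100 kb on each side, for ChIP replicate 1 (top) and ChIP replicate 2 (bottom). The x axis gives the distance from the left edge of the window in kb and the bar height the authors' score; red bars are the 3 and 4 regions in the window, blue bars regions outside it, and dotted lines the window limits. Both libraries show a gap about 103.1 kb from the left edge, and the highest bar lies to its right.

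The outer limits of the Polycomb block lay close together in the 2 libraries. On the Ubx side the first base was 12482202 in replicate 1 and 12482412 in replicate 2, a difference of 210 bases. On the Abd-B side the last base was 12814474 and 12814426, a difference of 48 bases. For comparison, the other 11 blocks of 50 kb or more on 3R in replicate 1 (regions under 5 kb apart joined) had 22 outer edges, which lay a median of 622 bases from the nearest block edge of replicate 2. Of these 22 edges, 2 were as close as the Abd-B side and 6 as close as the Ubx side. In the other direction, the 13 such blocks of replicate 2 had 26 outer edges, with a median distance of 675.5 bases. Of those 26 edges, 2 were as close as the Abd-B side and 7 as close as the Ubx side. Close outer edges were thus also found at other wide blocks of the arm.

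One gap was open in both libraries, and its edges nearly coincided. It ran from 12583096 to 12587226 (4131 bases) in replicate 1 and from 12583087 to 12587311 (4225 bases) in replicate 2. The left edges differed by 9 bases and the right edges by 85 bases. All 4131 bases of the replicate 1 gap were uncovered in replicate 2. The cause of the missing coverage was not tested.

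Such a match was rare among the other gaps of the arm. Of the 148 gaps under 5 kb on 3R outside the bithorax block in replicate 1, 1 (0.676%) had both edges within 100 bases of those of a replicate 2 gap, a tolerance set with the values in view. In the other direction it was 1 of 144 (0.694%), and that match was a gap of 104 bases in replicate 1 and 90 bases in replicate 2. Over gaps of any width, 2 of 297 (0.673%) and 2 of 329 (0.608%) were matched. The second of these was a gap of 7869 bases in replicate 1 and 7813 bases in replicate 2. It was wider than the bithorax gap, and its larger edge difference was 62 bases, against 85 bases at the bithorax gap. Among the 24 replicate 1 gaps of 3 to 5 kb outside the block, 0 were matched and the median of the larger edge difference was 2542 bases, while 12 of the 24 were wholly uncovered in replicate 2. Among the 23 replicate 2 gaps of 3 to 5 kb, 0 were matched, the median was 2608 bases, and 4 were wholly uncovered in replicate 1. The bithorax gap was picked because it was open in both libraries, and the range of 3 to 5 kb was chosen to hold its width. These counts are therefore a description, and the rarity of the match was not tested.

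**Figure D2:**
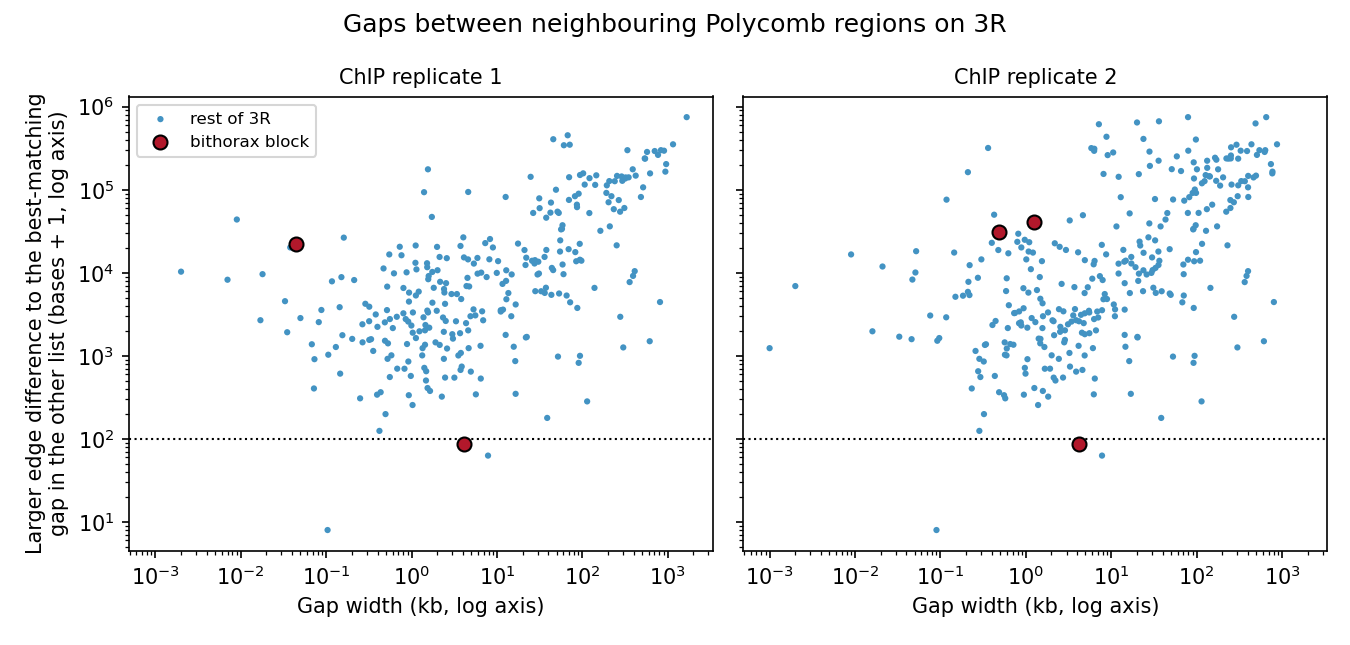
Each point is a gap between neighbouring Polycomb regions on 3R in ChIP replicate 1 (left) or ChIP replicate 2 (right), with gap width in kb on the x axis and, on the y axis, the larger of the left and right edge differences to the best-matching gap of the other list, in bases plus 1, both on log axes. The dotted line marks 100 bases; below it lie 2 blue points of the rest of 3R and 1 red point of the bithorax block in each library, the latter with a larger edge difference of 85 bases.

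The remaining gaps were found in 1 library each and were wholly covered in the other. Replicate 1 alone had the gap of 44 bases near the Ubx end, from 12484238 to 12484281. Replicate 2 alone had a gap of 484 bases from 12514931 to 12515414 in the left part and a gap of 1257 bases from 12623820 to 12625076 in the right part. On the rest of 3R, 29.1% of the replicate 1 gaps under 5 kb and 38.9% of those of replicate 2 were likewise wholly covered by the other list. Inside the block, no stretch longer than 4225 bases was uncovered in either library, so any longer stretch of the complex within the outer limits touched a Polycomb region in both.

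Base by base, the libraries differed little over the complex. Both covered 326005 bases (95.9% of the window), replicate 1 alone covered 2093 bases, replicate 2 alone covered 44 bases, and 11859 bases were uncovered in both. The bases covered in both made up 99.3% of those covered in either (the Jaccard index), against 74.5% on 3R outside the window, where most regions are narrow. Within the outer limits of the widest other block of the arm, it was 90.4% by the limits of replicate 1 and 91.9% by those of replicate 2. In the window and in that block each list covered most bases, so the index could not be low there whatever the positions. The contrast with the rest of 3R therefore partly restates the covered share. Of the uncovered bases shared by both libraries, 2202 lay before the first region, 4131 in the shared gap and 5526 after the last region. In bins of 10 kb, 29 of the 34 bins of the window were fully covered in both libraries. The other 5 bins held an outer limit or a gap, and the lowest was the last bin at the Abd-B end, with 44.8% and 44.3%.

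Single regions of the complex were mostly covered by the other list, the short one least. In replicate 1, replicate 2 covered 89.7% of the 2.04 kb region, 99.5% of the 98.8 kb region and 99.4% of the 227.2 kb region. In replicate 2, replicate 1 covered 99.9% of the first region and 100% of the other 3. Outside the window, 65% of the replicate 1 regions of 3R and 62.6% of those of replicate 2 overlapped the other list by at least 1 base. Coverage of at least 99% was reached by 15.5% of the replicate 1 regions and 25.5% of the replicate 2 regions of the rest of 3R, where the median region measured 2.05 kb and 2.04 kb.

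The edges at the gaps found in 1 library only had no counterpart in the other, which follows from the other list covering those gaps wholly. Of the 6 region edges in replicate 1, 3 lay within 100 bases of the same kind of edge in replicate 2, and in replicate 2 it was 3 of 8. The outer limit at the Ubx end, which differed by 210 bases, was not among them. The close edges were those of the shared gap and the outer limit at the Abd-B end. On the rest of 3R, 7.58% and 6.84% of the region edges lay that close, and 12.5% and 11.4% for regions of 10 kb or more. The median distance in the window was 147.5 bases in replicate 1 and 15451.5 bases in replicate 2. On the rest of 3R it was 1537.5 and 2024.5 bases, so the replicate 2 edges of the window were typically farther off. For the edges at the gaps found in 1 library only, the nearest edge of the same kind belonged to another place. It lay up to 22.2 kb away in replicate 1 and up to 40724 bases away in replicate 2.

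Within both lists, each region scored higher than the one before it from the Ubx end to the Abd-B end. In replicate 1 the values in order were 0.473, 1.20 and 1.82, and in replicate 2 they were 0.904, 1.22, 1.40 and 1.62. The first of the replicate 1 values came from the 2.04 kb region, 44 bases before the next, where replicate 2 had no break. The order thus also depends on where each list divided the block. Weighted by width, the part left of the shared gap scored 1.19 in replicate 1 and 1.12 in replicate 2, and the part right of it 1.82 and 1.58. The right part was thus higher by 0.631 and 0.467 on the authors' scale. Between single neighbouring regions of the complex, the steps in replicate 1 were 0.616 across the shared gap and 0.730 at the 2.04 kb region. In replicate 2 they ran from 0.179 to 0.316, and the lowest was the step across the shared gap. Absolute steps between neighbouring regions under 5 kb apart on the rest of the arm had a median of 0.193 and a highest value of 1.19 over 148 pairs in replicate 1. In replicate 2 the median was 0.163 and the highest value 2.43 over 144 pairs. The replicate 2 steps of the complex were thus all above the arm's median, the one across the gap only slightly. In replicate 1 the regions also grew wider in this order. In replicate 2 the widest region scored highest, but the 36.5 kb region scored 1.40 and the 67.7 kb region 1.22. Whether the scores follow width was not tested.

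Among regions of 50 kb or more, the right part of the complex stood high by score and the left part low. The 227.2 kb region was the widest of the replicate 1 list, 12th of 1189 by score and 3rd of the 23 regions of 50 kb or more. The 189.4 kb region was the widest of the replicate 2 list, 23rd of 1405 by score and 3rd of 17. The 98.8 kb region of the left part, 5th by width in replicate 1, ranked 22nd of the 23 by score. The 67.7 kb region of replicate 2, 10th by width, ranked 15th of the 17. In the whole lists these 2 left regions ranked 116th of 1189 and 119th of 1405 by score. Among regions of 10 kb or more they stood near the middle, at 106th of 207 and 96th of 210. The 32.5 kb region of the left part in replicate 2 ranked 172nd of the 210. On the rest of 3R, regions of 50 kb or more had a median score of 1.39 in replicate 1 (8 regions, 1.24 to 1.83) and 1.30 in replicate 2 (7 regions, 1.16 to 1.94). The left regions, at 1.20 and 1.22, lay below the first range and below the median of the second. The right regions, at 1.82 and 1.62, lay above both medians and inside both ranges.

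**Figure D3:**
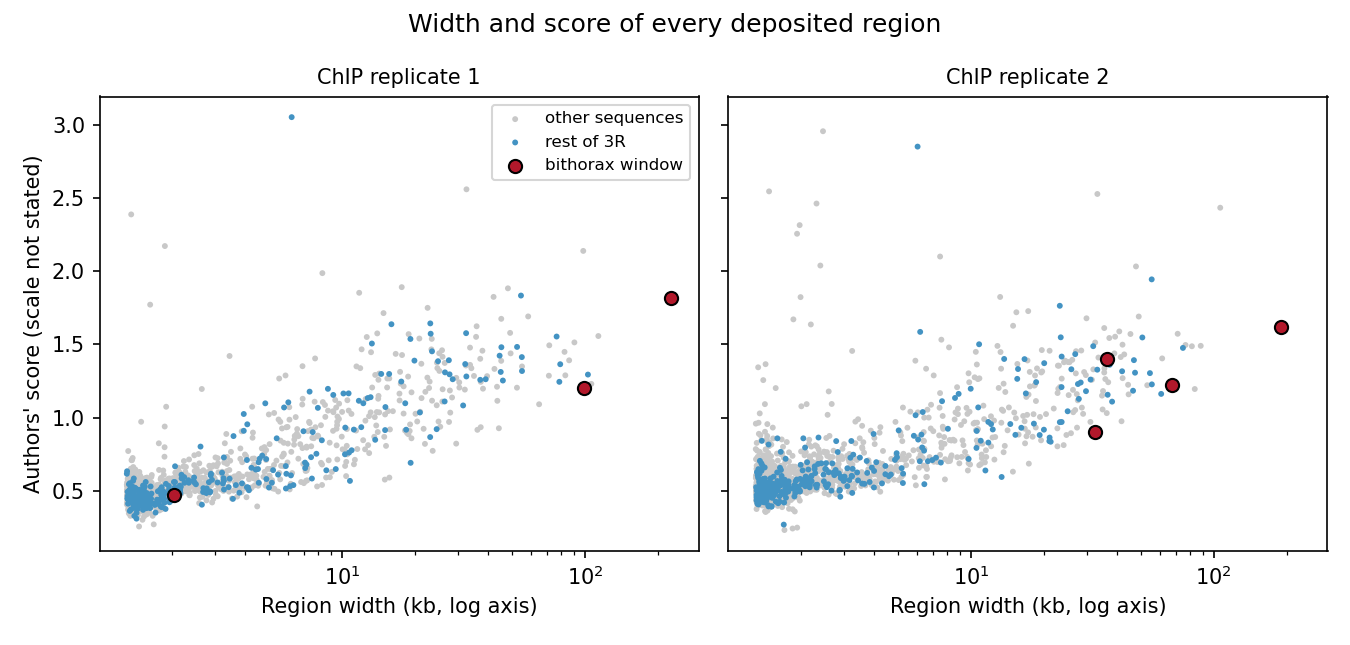
Width in kb (log axis) and authors' score of every deposited region in ChIP replicate 1 (left) and ChIP replicate 2 (right); red points are the 3 and 4 regions of the bithorax window, blue points the other regions of 3R and grey points those of other sequences. The widest region in each panel is the red one of the right part, with scores of 1.82 and 1.62, while the red points at 98.8 kb and 67.7 kb, with 1.20 and 1.22, rank 22nd of 23 and 15th of 17 among regions of 50 kb or more.

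Weighted by width over the whole window, the score was 1.62 in the replicate 1 list, where the rest of 3R had 1.11, and 1.44 in the replicate 2 list, where the rest of 3R had 1.07. One score is given per region, so these values also depend on where each list divided the block, and scores were compared within a list only.

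Coverage was low in the 100 kb on each side of the complex. The nearest region before the block lay 21.8 kb away in replicate 1 (12455787 to 12460372, score 0.719) and 20.4 kb away in replicate 2 (12454509 to 12462037, score 0.693), and these overlapped each other. After the block, replicate 2 had its nearest region 39.0 kb away (12853456 to 12859379, score 1.02), and replicate 1 had an overlapping one that scored 1.10. Replicate 1 also listed a region of 1.47 kb 33.0 kb from the block (12847460 to 12848926, score 0.423), which replicate 2 did not cover. The 100 kb on the Ubx side were covered to 8.13% and 9.21%, and the 100 kb on the Abd-B side to 11.5% and 9.90%. The flanks were thus at or above the share of the rest of the arm taken as a whole, and the widest region in them measured 7.53 kb.

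The covered share of the window was set against tiles of the same length, laid out from its edges along the arm. Only whole tiles were used, so a stretch shorter than a tile at each arm end was left out. The 80 other tiles had a median of 1.51% covered in replicate 1 and 2.22% in replicate 2, and 21 and 16 of them held no covered base. In each library 1 of the 80 (1.25%) was covered to at least 50%, and it reached 73.8% and 73.2%. The next highest reached 47.0% and 44.1%. The tile directly before the window was covered to 22.2% and 21.3%, and the one directly after it to 3.37% and 3.46%. The layout starts at the window, so the window holds its block whole while other blocks can be divided between tiles. The widest other block was divided in this way, and the highest other tile held only part of it. Few regions made up this coverage, since 25 tiles in replicate 1 and 23 in replicate 2 held more regions than the window.

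**Figure D4:**
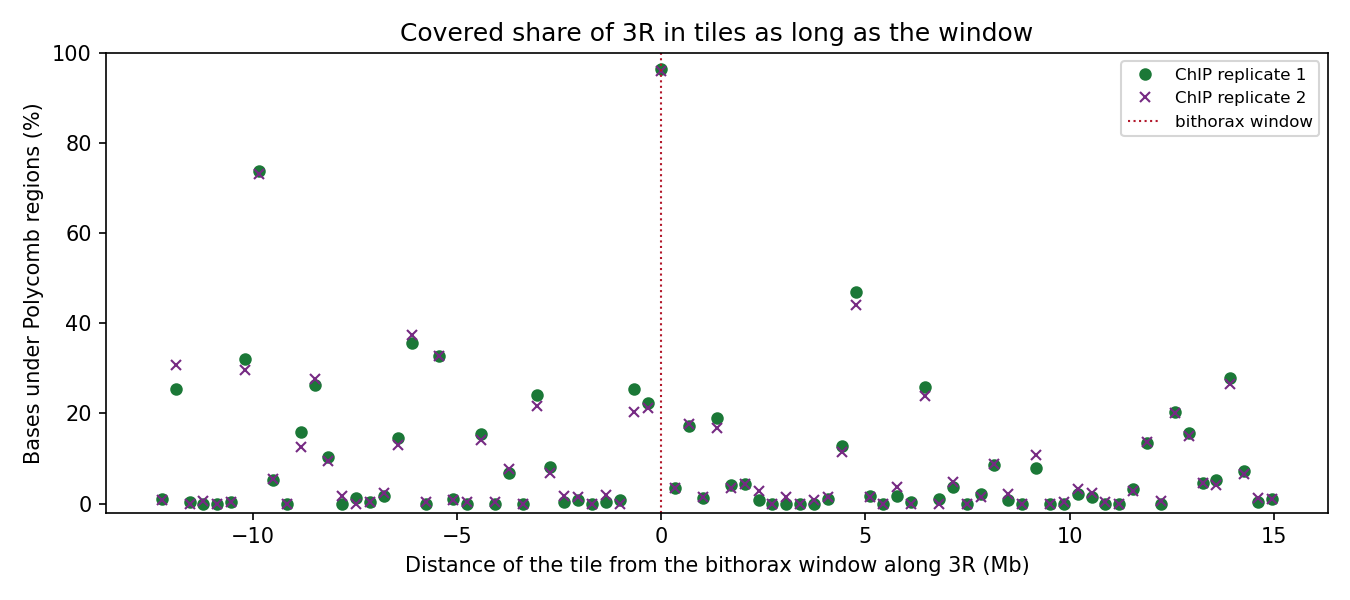
Share of bases under Polycomb regions in each tile of 3R as long as the bithorax window (340.0 kb), by the distance of the tile from the window in Mb, for ChIP replicate 1 (circles) and ChIP replicate 2 (crosses). The window stands at 96.5% and 95.9%, and the highest other tile at 73.8% and 73.2%. That tile holds only part of the widest other block of the arm, which was covered to 95.7% and 93.8% within its own limits.

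The block over the complex was less divided than the only wider block of the arm. With regions under 5 kb apart joined, it spanned 332.3 kb in replicate 1 and 332.0 kb in replicate 2 and ranked 2nd of 150 and 2nd of 186 blocks on 3R. The widest block, from 2532987 to 2875271 in replicate 1, held 16 regions against 3, and in replicate 2 it held 22 against 4. Its longest gap was 2389 bases in replicate 1 and 4905 bases in replicate 2, against 4131 and 4225 bases in the bithorax block. Within their outer limits in each library, regions covered 98.7% and 98.2% of the bithorax block and 95.7% and 93.8% of the other. The width-weighted scores were 1.62 and 1.44 for the bithorax block and 1.22 and 1.12 for the other. The Antennapedia complex, the other Hox cluster of the fly, also lies on 3R, but no genes were assigned to that block here. These differences are between single blocks and were not tested.

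Beside the other 3R blocks of 50 kb or more, the bithorax block was in the upper part of the range for score and for covered share without leading in either. Of the 11 such blocks in replicate 1, 1 had a higher width-weighted score and 4 a higher covered share. Of the 13 in replicate 2, 2 had a higher score and 4 a higher covered share. Their scores ran from 0.839 to 1.66 and from 0.957 to 1.76, and their number of regions from 1 to 21 and from 1 to 22.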

How the data were processed

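Per the labels' protocols, crosslinked embryo chromatin went through immunoprecipitation. The submitters' processing notes name Bowtie 0.12.7. The build is FlyBase r5, per the file headers. The authors deposited 1 list of enriched regions per ChIP library with a score per region; neither its scale nor the caller, the threshold or any pooling is stated in these sources. No region had the same start and end in both lists. The source names of the ChIP samples carry each other's experiment numbers when set beside the file names. The recorded link, which the input descriptions also follow, was used. If it were wrong, only the replicate names would swap.

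Covered bases, gaps, edges, joined blocks and tiles were computed with Python 3.11.15 and numpy 2.4.6 (intervals with scipy 1.17.1, plots with matplotlib 3.10.9). Coverage, gaps, the Jaccard index and joining were checked on 20 simulated lists with known answers. Edge distances, gap matching and tiles were not checked in this way. Overlap means at least 1 base. Starts were matched to starts and ends to ends. Values are means ± SD over the ChIP libraries or are given per library; no test was made, since there is 1 condition. Every region in the window is named, by rule. The window, the members and the measures were chosen with earlier results of these data known. No genome or annotation of FlyBase r5 was used, Release 6 coordinates were not converted, and no sequence is shown. Depth was unknown, so an uncovered stretch may be unenriched or under the authors' threshold.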

Additional observations from a re-analysis of the deposited data

How the results depend on the processing

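Under the other settings tried, 26 values were labelled as unchanged and 11 as moved, as were 2 for a setting added later. Unchanged meant within the SD between libraries, within 1.5 times for counts, or, for the Jaccard index, within a binomial interval over bases. That interval treats neighbouring bases as independent. With 2 libraries, leaving 1 out always stays within the SD, so those labels were fixed in advance for all but counts. Every region lay wholly inside the window, so asking for this changed nothing. None could change sign, since all are positive. Leaving out either ChIP library gave a covered share of 95.9 to 96.5%, 3 to 4 regions, 2 to 3 gaps, a weighted score of 1.44 to 1.62 (single lists), a block of 332.0 to 332.3 kb, and 8.07 to 8.12% on the rest of 3R. Widening the window by 50 kb on each side, which adds flank, gave a covered share of 77.2%, 6 regions, 5 gaps and a Jaccard index of 97.8%. Merging regions under 1 kb apart left a mean of 1.5 gaps and a Jaccard index of 99.5%. With only the regions above the median score of each list (upper 50%), there was a Jaccard index of 98.9% and 6.87% on the rest of 3R, since fewer regions remain. That background was 7.01% without the widest other block and 6.80% over X, 2L, 2R, 3L and 3R. Joining regions under 1 kb apart instead of 5 kb left open the shared gap and, in replicate 2, the gap of 1257 bases, and gave a mean span of 208.3 kb (227.2 kb and 189.4 kb). Matching gap edges within 250 bases, added after the values were seen, gave 3 matches on the rest of 3R in each library instead of 1. No paired analysis was possible because no values for the inputs were analysed here.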
